A study of Xenopus laevis with 22 samples.

Results

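The genes described here are the Notch ligands dll1 and jag1, the receptor notch1 and the transcriptional repressors hes1 and hes5, as measured in *Xenopus laevis* animal caps, the explanted ectoderm of the early embryo. They were taken as every transcript model, called a target here, whose symbol in the deposited tables was one of those 5, which gave 29 of 24383 targets. In Notch signalling a transmembrane ligand on one cell (a Delta or a Jagged protein) binds the Notch receptor of its neighbour, the receptor is cleaved, and its intracellular part enters the nucleus and switches on genes with the DNA-binding protein Rbpj. Among the best known of those genes are the hes genes, which encode basic helix-loop-helix repressors. In the frog embryonic skin this exchange limits how many deep-layer cells become multiciliated cells or ionocytes, and Multicilin, a coiled-coil regulator that acts with E2f4, drives the multiciliated programme in the cells that escape it.

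RNA was sequenced from caps injected with messenger RNA for Multicilin fused to the human glucocorticoid receptor hormone-binding domain (MCIDAS-HGR) together with a dominant-negative E2f4 (dnE2F4), and from caps injected with MCIDAS-HGR alone. They are called dnE2f4 caps and Multicilin caps here. Both were given 20 µM dexamethasone at mid-stage 11, which activates the fusion, and were collected after 3, 6 and 9 h at 22 °C (stages 13, 16 and 18), with 3 libraries of 20 pooled caps for each condition and time. Every cap thus carried Multicilin, no untreated cap was sequenced, and the mRNA was not directed to a cell type by any promoter. E2f4-GFP binding was mapped by chromatin immunoprecipitation at 6 h (stage 16), from about 300 caps per condition, in caps injected with mRNA for E2f4-GFP with or without MCIDAS-HGR. The labels give the 20 µM dexamethasone for caps that hold an inducible construct, so its use in the caps without MCIDAS-HGR is not stated.

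Depth ran from 9159519 to 38099850 fragments per library. The e2f4 level, which includes the injected mRNA, was 1400 to 9444 CPM (counts scaled by library size) in 8 of the 9 libraries labelled dnE2f4 and 16.4 to 38.2 CPM in 8 of the 9 labelled Multicilin. The library labelled dnE2f4 at 9 h, replicate 2, had 15.9 CPM of e2f4, and the library labelled Multicilin at 9 h, replicate 2, had 1521 CPM, each opposite to its label. A dnE2f4 library at 3 h (replicate 1) and one at 9 h (replicate 3) were counted against a larger set of 35532 targets. The tests below therefore used 14 libraries, which left 2, 3 and 1 dnE2f4 libraries at 3, 6 and 9 h, against 3, 3 and 2 Multicilin libraries. The labels do not say whether replicates came from separate clutches, so p-values measure the spread between these libraries. The caps had the profile of ectoderm, with 37522 to 39355 CPM summed over 16 keratin, cadherin and other ectodermal markers in dnE2f4 caps at 6 h and 37680 to 39925 CPM in Multicilin caps. Most of each sum came from the keratins krt19 (13959 to 15739 CPM over the 6 h libraries), krt12 (10403 to 12274 CPM) and krt8 (5413 to 6276 CPM). krt5 was under 1 CPM.

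The 5 symbols covered more than 5 genes. The larger target set gave the same positions 16 different names, and 17 of the 29 targets had another name there, so each target is called here by that second name, with copy 1 the more abundant of those that share it. *X. laevis* is an allotetraploid frog, and most of its genes exist as a pair of homeologous copies that share part of their sequence. Positions are on the JGIv7b scaffolds of the files. The dll1 symbol held dll1 copy 1 (scaffold 34423, 1987041 to 2006352, plus strand), dll1 copy 2 (scaffold 176005, 334600 to 343181, minus strand) and 2 targets named dlc, another Delta-type ligand. The jag1 symbol held jag1 copies on scaffolds 111824 and 12020, and the notch1 symbol held notch1 copies on scaffolds 37448 and 46073 together with 1 target of notch2.

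The hes1 symbol held hes1 copy 1 (scaffold 30987, 2402981 to 2405745, plus strand), hes1 copy 2 (scaffold 43648, 488242 to 491835, minus strand), a scarce copy 3, hes4-a (scaffold 66475, 1366305 to 1368252, minus strand) and 2 targets named hes7.2. The hes5 symbol held 14 targets, which included hes3.1, esr10, hes5, hes8 and hes3.3 side by side in 2 clusters, one of 103 kb on scaffold 87017 and one of 101 kb on scaffold 208071. Of the 29 targets, 26 passed the filter on low counts. The 3 that did not were hes5.2-a, hes5.2-b and hes7.2 copy 2. Fragments that fit several copies were shared out by the authors' software. Only 46.8% of the fragments of dll1 copy 1 and 40.7% of those of dll1 copy 2 were assigned uniquely, against 98.2% for hes4-a and 92.1% and 95.5% for the hes3.3 copies. A split between dll1 copies, or between the hes8 copies (40.0% and 30.3% unique), is thus uncertain, and the sum of a pair is surer.

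Per unit of transcript length, hes1 and hes4-a were the most abundant of the 16 names at 3 h, and jag1 was low. In dnE2f4 caps at 3 h the deposited FPKM (fragments per unit of transcript length and of library depth), summed by name, averaged 86.4 for hes4-a, 71.1 for hes1, 60.0 for hes3.1, 57.1 for hes3.3, 45.2 for dll1, 27.6 for esr10, 19.0 for hes8, 18.1 for notch1, 17.6 for dlc, 15.3 for hes5.1, 9.04 for hes5 and 2.46 for jag1. In Multicilin caps at 3 h the order was hes1 (97.0 FPKM), hes4-a (65.8), hes3.1 (48.7), dll1 (29.6), hes3.3 (23.7), notch1 (12.3), dlc (9.26), esr10 (8.73), hes8 (7.66), hes5.1 (5.03), hes5 (4.49) and jag1 (2.07). The other 4 names, hes7.2, hes5.2-a, hes5.2-b and notch2, averaged under 1 FPKM in both conditions. For notch2 this covers only the target under the notch1 symbol. With those targets under the notch2 symbol that keep the name in the larger set added, the name averaged 11.8 CPM in dnE2f4 caps and 9.93 CPM in Multicilin caps at 3 h. All targets under the notch2 symbol summed to 38.1 and 32.4 CPM in dnE2f4 caps and 31.7, 48.0 and 36.2 CPM in Multicilin caps. Neighbours in these orders overlapped in places. In dnE2f4 caps hes1 ranged from 51.6 to 90.6 FPKM, which spanned the hes4-a values (82.6 to 90.1 FPKM), and in Multicilin caps the hes1 range of 64.5 to 120 FPKM overlapped the 59.1 to 71.8 FPKM of hes4-a. At 6 h hes1 and hes3.1 led in both conditions, with 54.1 and 41.7 FPKM in dnE2f4 caps and 82.9 and 43.8 FPKM in Multicilin caps. At 6 h hes4-a averaged 23.8 FPKM in dnE2f4 caps and 10.2 FPKM in Multicilin caps, dll1 16.8 and 5.54 FPKM, hes3.3 15.1 and 1.80 FPKM, and jag1 0.616 and 0.357 FPKM.

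**Figure D1:**
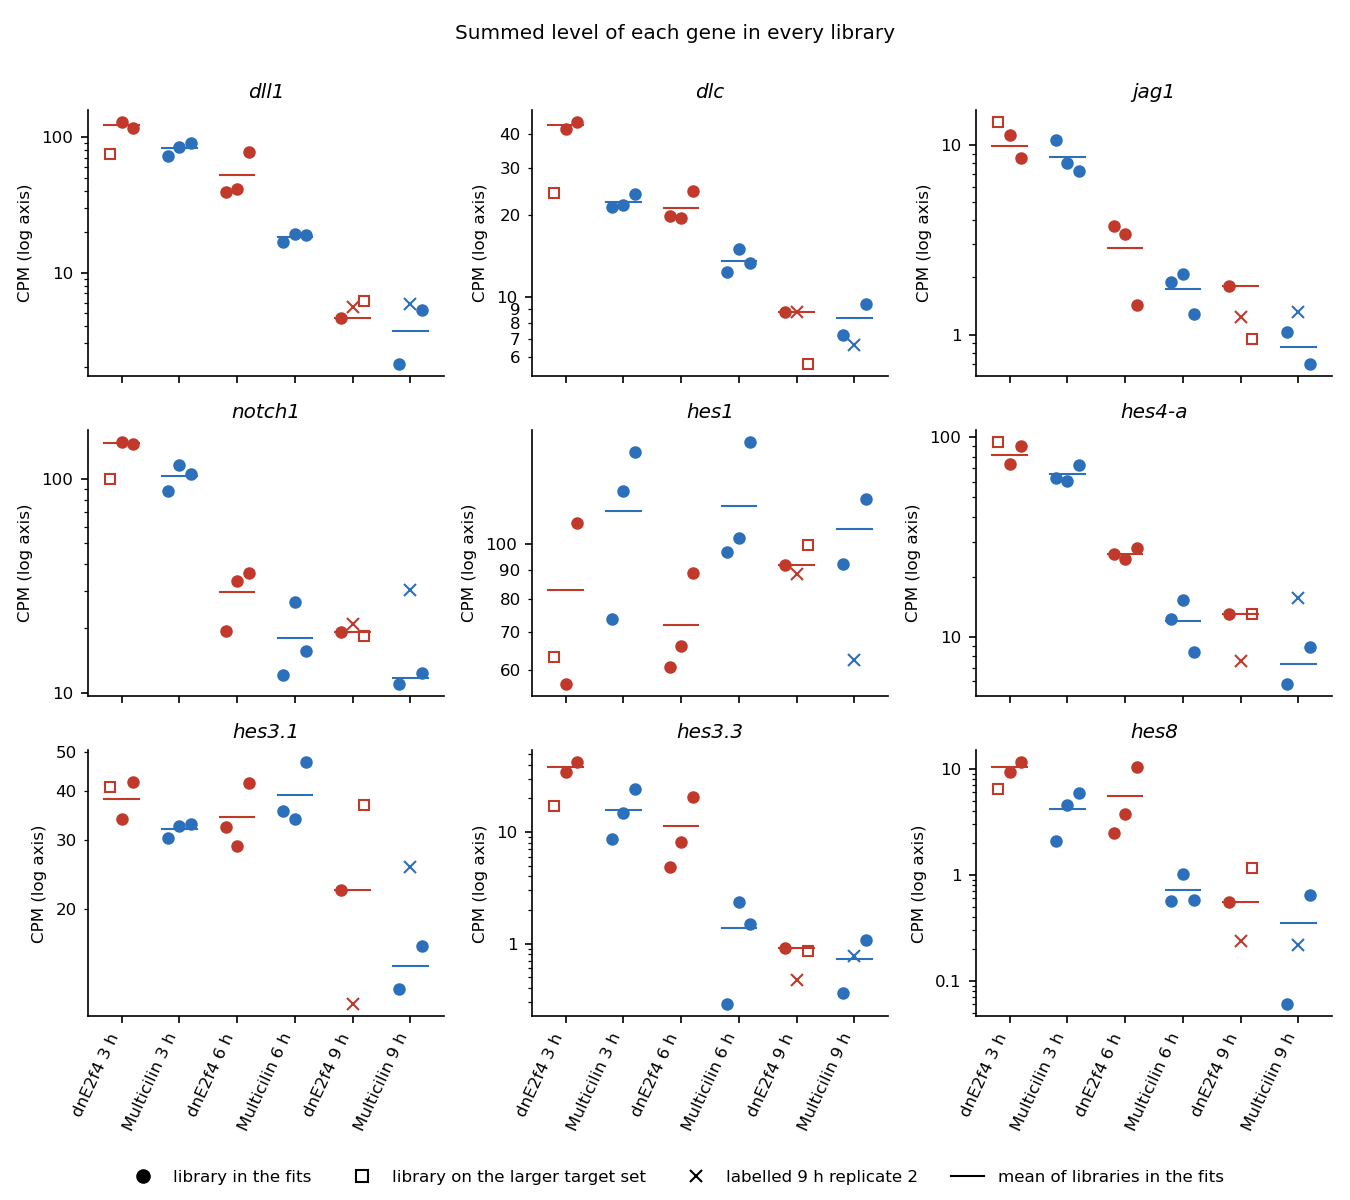
Summed CPM (log axis) of 9 names in each of the 18 libraries at 3, 6 and 9 h after dexamethasone, with dnE2f4 caps in red left of Multicilin caps in blue. Dots are libraries in the tests, open squares the 2 counted against the larger target set and crosses the 2 labelled replicate 2 at 9 h. A line marks the mean of the dots. Open squares sum every target of the name in the larger set, and the other marks only the matched positions. At 6 h the dnE2f4 dots of dll1, dlc, hes4-a, hes3.3 and hes8 lie above every Multicilin dot, while those of hes1 lie below every Multicilin dot.

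At 6 h the Delta-type ligands and a subset of the hes repressors were higher in dnE2f4 caps than in Multicilin caps. Of the 29 targets, 7 were called higher at an adjusted p under 0.05 (edgeR quasi-likelihood test, Benjamini-Hochberg over 20043 targets) and 0 lower. Over all targets tested, 3.44% were called in either direction and 0.868% higher. The 7 were both dll1 copies, dlc copy 1, hes4-a, both hes3.3 copies and hes8 copy 1. The median log2 fold change of the 26 that passed the filter was 0.96, against 0.032 over all targets.

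Among the ligands, dll1 copy 1 had 33.5, 34.5 and 63.1 CPM in dnE2f4 caps at 6 h (replicates 1, 2 and 3), against 14.5, 16.3 and 16.1 CPM in Multicilin caps. The groups did not overlap, and dnE2f4 replicate 3, the library of lowest depth, stood well above the other two. The log2 fold change of dll1 copy 1 was 1.48 ± 0.27 (SE, adjusted p = 0.0129). For dll1 copy 2 the levels were 6.17, 7.11 and 13.0 CPM in dnE2f4 caps and 2.19, 2.89 and 3.15 CPM in Multicilin caps, again with no overlap and with replicate 3 highest in each condition. Its log2 fold change was 1.64 ± 0.35 (adjusted p = 0.0246). dlc copy 1 (scaffold 39723, 7060697 to 7072339, minus strand) had 18.5, 19.1 and 23.5 CPM in dnE2f4 caps, against 11.4, 14.1 and 13.3 CPM in Multicilin caps. It was higher by 0.65 ± 0.16 on the log2 scale (adjusted p = 0.0471), a smaller step than that of dll1, and the groups did not overlap. This call was lost with each of the 6 libraries left out in turn (log2 fold change 0.53 to 0.72, edgeR adjusted p 0.0531 to 0.18). It was also lost with RLE size factors (0.0607), with no filter (0.058) and with the 6 h groups fitted alone (0.106). dlc copy 2 stayed under 1.5 CPM in all 6 libraries.

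The sum over the dll1 symbol was 60.3, 61.1 and 102 CPM in dnE2f4 caps at 6 h and 29.3, 34.5 and 32.6 CPM in Multicilin caps. It was the one sum called among the 5 symbols (log2 fold change 1.21 ± 0.21, adjusted p = 0.00918), where 4.79% of all symbols were called and 1.24% called higher. It was called again with each of the 6 libraries left out in turn. It was not called once the libraries left out of the tests were brought in, at much the same size: adjusted p was 0.171 with the 16 libraries of the common target set as labelled (1.22), 0.069 over 16 libraries of both sets (1.21) and 0.407 over all 18 as labelled (1.21). The fits as labelled keep the libraries whose e2f4 is opposite to their labels. Over both sets the sum includes dlc only in libraries of the common set. These fits are therefore not like tests of the call. Calls of single targets rested on fewer libraries: 0 of the 7 remained when Multicilin replicate 3 was left out, and 2 targets were called without dnE2f4 replicate 3, 3 without Multicilin replicate 1 and 3 without dnE2f4 replicate 2. Without Multicilin replicate 2 the calls of dll1 copy 2, dlc copy 1, hes3.3 copy 1 and hes8 copy 1 were lost, and esr10 copy 1 and notch1 copy 2 were called. The log2 fold change kept its sign in each of these for all 7. The share of all targets called in these smaller fits is not given, so the lost calls need not be particular to these targets.

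jag1 encodes the Serrate-type ligand, and its RNA was scarce at 6 h. jag1 copy 1 had 1.72, 2.09 and 1.41 CPM in dnE2f4 caps and 0.94, 1.19 and 0.83 CPM in Multicilin caps, without overlap. The log2 fold change of 0.85 ± 0.27 did not pass the threshold (adjusted p = 0.119) and passed it once the replicate number was added as a block (0.83, adjusted p = 0.0341), though not with the block fitted on the 6 h groups alone (adjusted p = 0.0521). jag1 copy 2 had 2.02, 1.29 and 0.00 CPM in dnE2f4 caps and 0.94, 0.88 and 0.47 CPM in Multicilin caps, which overlapped (adjusted p = 0.726).

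The receptor notch1 showed overlapping groups at 6 h. notch1 copy 1 had 7.78, 13.8 and 16.4 CPM in dnE2f4 caps, against 5.62, 11.2 and 8.32 CPM in Multicilin caps. notch1 copy 2 had 11.7, 19.5 and 19.3 CPM in dnE2f4 caps and 6.44, 15.4 and 7.63 CPM in Multicilin caps. Within each replicate number the dnE2f4 library was the higher of the pair for both copies. The log2 fold changes were 0.57 ± 0.31 (adjusted p = 0.405) for copy 1 and 0.77 ± 0.29 (adjusted p = 0.207) for copy 2, and with the replicate block the adjusted p were 0.0257 and 0.015. The notch2 target was under 0.7 CPM in all 6 libraries.

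**Figure D2:**
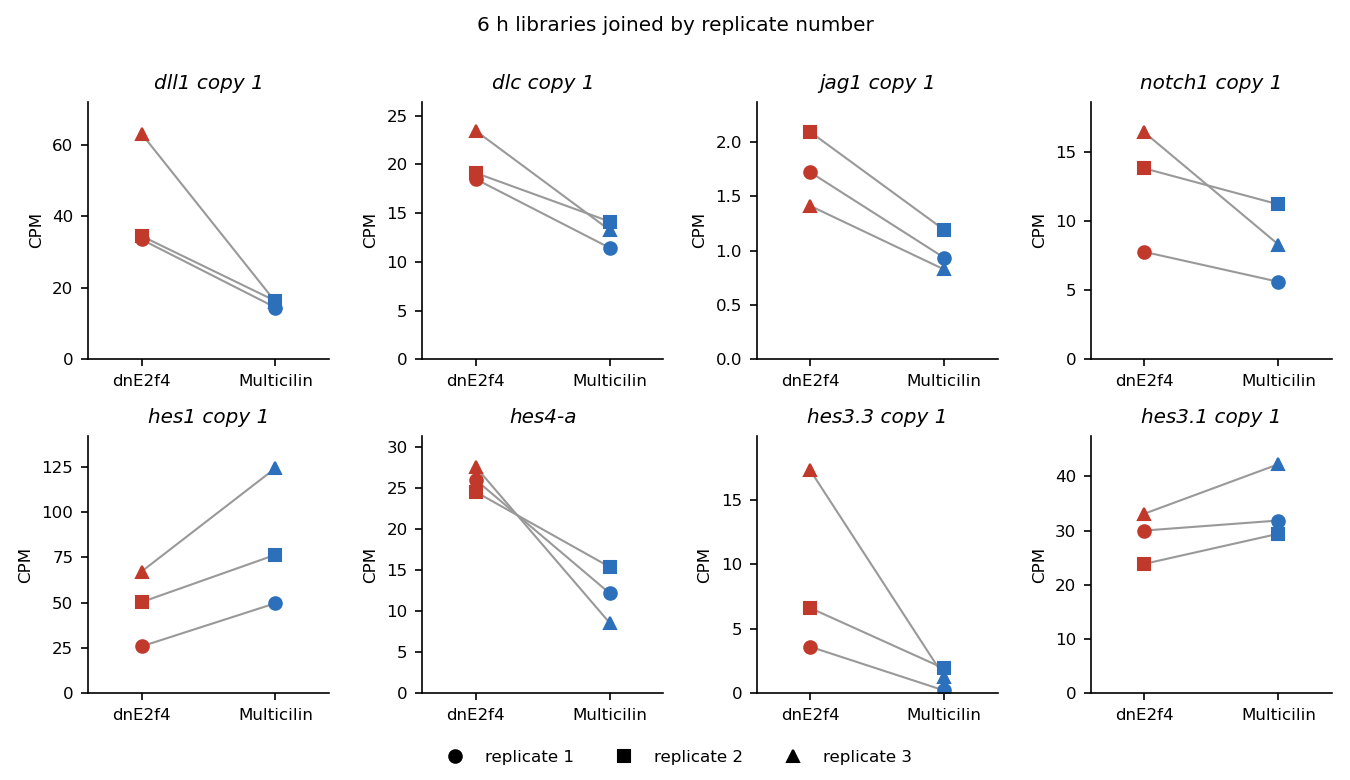
CPM at 6 h (each axis starts at 0) of 8 targets in dnE2f4 caps (left) and Multicilin caps (right), with a line joining the libraries of the same replicate number. The lines of dll1, dlc, jag1, notch1, hes4-a and hes3.3 fall towards Multicilin in all 3 pairs, and those of hes1 copy 1 and hes3.1 copy 1 climb.

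The hes1 symbol joined genes with log2 fold changes of opposite sign at 6 h. hes1 itself was lower in dnE2f4 caps within each replicate number: copy 1 had 26.0, 50.4 and 67.3 CPM in dnE2f4 caps (replicates 1, 2 and 3), against 49.8, 76.5 and 124 CPM in Multicilin caps. The groups overlapped because replicate 1 was low and replicate 3 high in both conditions. The ratio within a number was -0.93, -0.60 and -0.88 on the log2 scale. Without the block its log2 fold change of -0.81 ± 0.43 missed the threshold (adjusted p = 0.392), and with the block it passed at the same size (-0.81, adjusted p = 0.00302). hes1 copy 2 had 34.0, 15.7 and 20.2 CPM in dnE2f4 caps and 45.9, 25.7 and 29.6 CPM in Multicilin caps, with log2 ratios of -0.43, -0.70 and -0.54 within numbers. It did not pass without the block (-0.53 ± 0.32, adjusted p = 0.469) or with it over the 14 libraries (adjusted p = 0.142), and it passed with the block on the 6 h groups alone (-0.57, adjusted p = 0.000889). Summed by name, hes1 had 60.8, 66.3 and 89.1 CPM in dnE2f4 caps, against 97.0, 102 and 151 CPM in Multicilin caps. These sums did not overlap, and the log2 fold change was -0.71 ± 0.30 (adjusted p = 0.229, and 0.00728 with the block).

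hes4-a, a second Hairy-type repressor, had 26.0, 24.5 and 27.5 CPM in dnE2f4 caps at 6 h and 12.2, 15.4 and 8.56 CPM in Multicilin caps. The groups stood clear of each other, and the dnE2f4 libraries differed little among themselves. It rose by 1.11 ± 0.21 on the log2 scale (adjusted p = 0.0154). In Multicilin caps at 6 h hes1 made up 90.7% of the hes1 sum and hes4-a 9.29%, and in dnE2f4 caps they made up 73.2% and 26.6%. The sum over the symbol was 88.1, 90.7 and 117 CPM in dnE2f4 caps, against 110, 119 and 161 CPM in Multicilin caps. Its log2 fold change of -0.40 ± 0.23 was not called (adjusted p = 0.398). hes1 copy 3 and hes7.2 copy 1 were under 1 CPM.

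The targets under the hes5 symbol are the frog's enhancer-of-split-related genes, and they did not move together. At 6 h hes3.3 copy 1 (scaffold 208071, 3976291 to 3978435, minus strand) had 3.61, 6.61 and 17.3 CPM in dnE2f4 caps, against 0.23, 1.93 and 1.30 CPM in Multicilin caps. The groups did not overlap, though the dnE2f4 libraries spread widely. hes3.3 copy 2 (scaffold 87017, 2117814 to 2119622, plus strand) had 1.20, 1.46 and 3.04 CPM in dnE2f4 caps and 0.06, 0.43 and 0.24 CPM in Multicilin caps. The log2 fold changes of both copies were close, 2.91 ± 0.73 (adjusted p = 0.049) and 2.83 ± 0.54 (adjusted p = 0.015), and dnE2f4 replicate 3 was highest for each.

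hes8 copy 1 had 1.47, 2.41 and 5.23 CPM in dnE2f4 caps at 6 h and 0.34, 0.52 and 0.46 CPM in Multicilin caps, a log2 fold change of 2.66 ± 0.62 (adjusted p = 0.0368). hes8 copy 2 had 1.00, 1.31 and 4.98 CPM in dnE2f4 caps and 0.23, 0.49 and 0.13 CPM in Multicilin caps. Its log2 fold change of 2.96 ± 0.76 just missed the threshold (adjusted p = 0.0545) and passed with the block (2.82, adjusted p = 0.00279). esr10 copy 1 had 1.12, 0.97 and 2.17 CPM in dnE2f4 caps and 0.00, 0.60 and 0.08 CPM in Multicilin caps, without overlap. It passed with the block over the 14 libraries (adjusted p = 0.0141) and not without it (0.115) or with the block on the 6 h groups alone (0.0693).

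hes3.1, at the end away from hes3.3 in both clusters, was not called. hes3.1 copy 1 (scaffold 87017, 2016378 to 2019291, minus strand) had 30.0, 23.9 and 33.1 CPM in dnE2f4 caps at 6 h, against 31.9, 29.4 and 42.2 CPM in Multicilin caps, and the groups overlapped (log2 fold change -0.25, adjusted p = 0.583). hes3.1 copy 2 had 2.30, 4.93 and 7.81 CPM in dnE2f4 caps and 3.45, 4.41 and 5.83 CPM in Multicilin caps (adjusted p = 0.96). Because hes3.1 made up 91.6% of the hes5 sum in Multicilin caps at 6 h and 61.4% in dnE2f4 caps, the sum differed little, with 43.7, 44.9 and 79.6 CPM in dnE2f4 caps and 37.7, 38.9 and 52.0 CPM in Multicilin caps (log2 fold change 0.38 ± 0.27, adjusted p = 0.536). hes5 copy 1 reached 1.74 CPM in dnE2f4 caps and 0.83 CPM in Multicilin caps, hes5.1 reached 1.63 CPM in dnE2f4 caps and 0.29 CPM in Multicilin caps, and neither was called. hes5.1 passed with the block (adjusted p = 0.00723). esr10 copy 2 averaged 0.973 CPM in dnE2f4 caps and 0.311 CPM in Multicilin caps. With the block on the 6 h groups alone, hes5 copy 1 (adjusted p = 0.0408) and esr10 copy 2 (0.0438) passed as well.

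**Figure D3:**
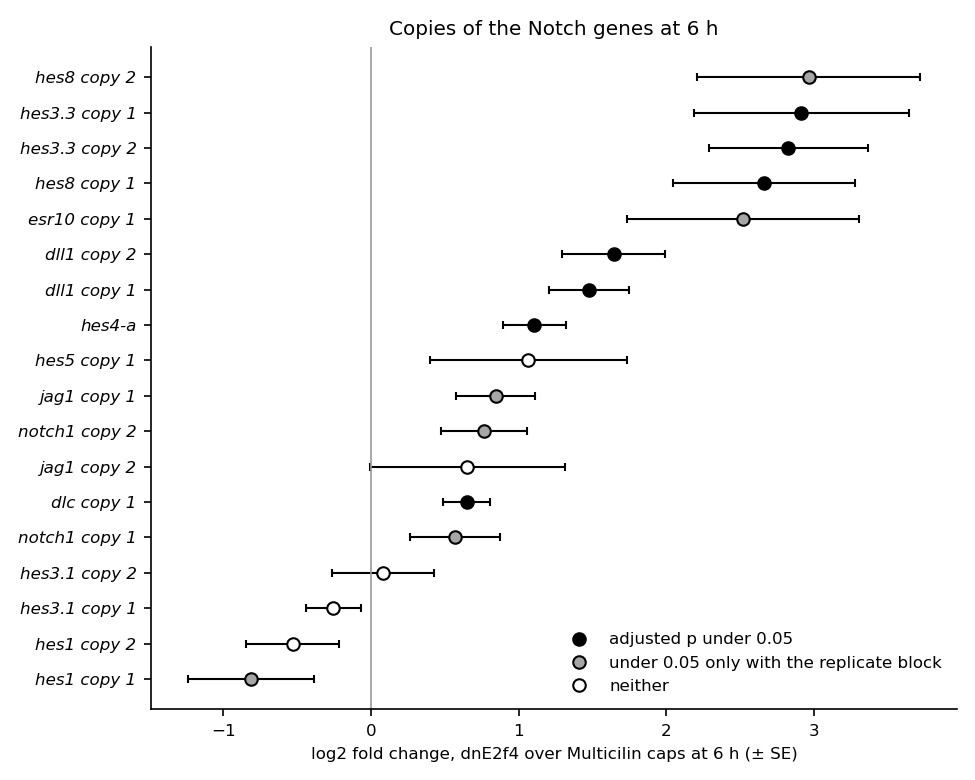
Log2 fold change at 6 h, dnE2f4 over Multicilin caps, with its standard error, for the 18 targets with a mean of at least 1 CPM in either condition. Black points passed an adjusted p of 0.05, grey points passed with the replicate block only and white points passed in neither, and both hes1 copies and hes3.1 copy 1 lie left of 0.

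The 2 hes clusters held the same 5 genes in the same order along the scaffold, hes3.1, esr10 with hes5 inside its span on the other strand, hes8 and hes3.3, so what differed within one cluster could be compared with the other. In both, hes3.3 and hes8 at one end had positive log2 fold changes above 2.6 at 6 h, and hes3.1 at the other end, about 100 kb away, had values of -0.25 and 0.085. The large positive values were not confined to the hes3.3 end. esr10, which lies between hes3.1 and hes8, had 2.10 summed by name (edgeR adjusted p = 0.1). esr10 copy 1, on scaffold 208071, had 2.57 in the edgeR fit with the block (adjusted p = 0.0141). The called targets of the clusters were hes3.3 in both and hes8 on scaffold 208071. E2f4-GFP peaks lay in and within 10 kb of both clusters. With Multicilin there were 3 on scaffold 87017 and 4 on scaffold 208071, and without Multicilin 9 on each. The whole sets held 12778 peaks from 15313243 tags with Multicilin and 15693 peaks from 24997566 tags without. The part of this difference in depth in the cluster counts was not tested.

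**Figure D4:**
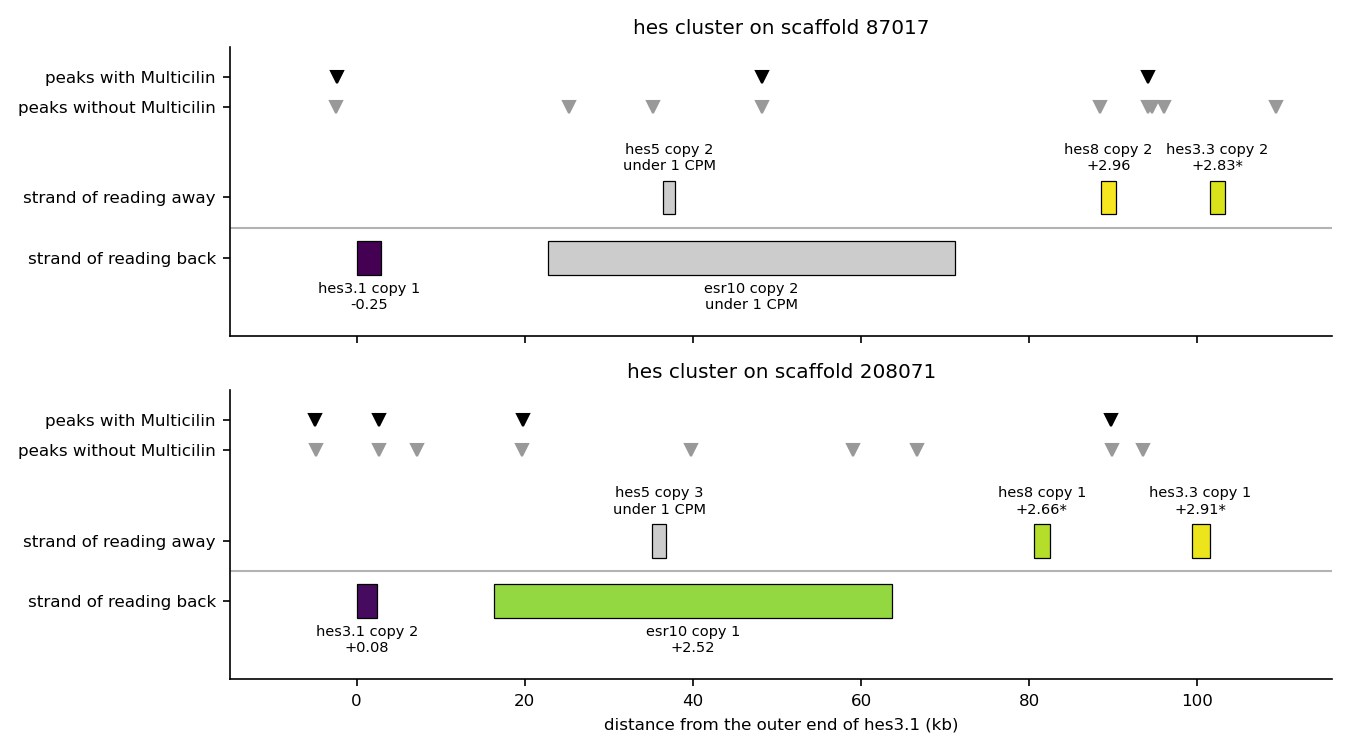
The 2 hes clusters drawn to scale as distance in kb from the outer end of hes3.1, with each gene coloured and labelled by its log2 fold change at 6 h (dnE2f4 over Multicilin, an asterisk for an adjusted p under 0.05). Triangles mark E2f4-GFP peaks with Multicilin (upper row) and without Multicilin (lower row), and the genes of large positive change, hes3.3 and hes8, lie at the end away from hes3.1 in both.

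At 3 h, 1 of the 29 targets was called, dlc copy 1, which was higher in dnE2f4 caps (0.284% of all targets were called in either direction). It had 40.7 and 42.7 CPM in dnE2f4 caps (replicates 2 and 3), against 19.8, 19.8 and 23.3 CPM in Multicilin caps, close to a doubling with no overlap. The log2 fold change was 1.00 ± 0.17 (adjusted p = 0.0417). The call was lost when Multicilin replicate 1 or 2 or dnE2f4 replicate 2 or 3 was left out, at log2 fold changes of 0.95 to 1.02, and with uniquely assigned counts (1.09, adjusted p = 0.0937). dnE2f4 replicate 1, counted against the larger set, had 24.3 CPM over every target named dlc there. The sums over the matched positions were 21.6, 21.8 and 24.1 CPM in Multicilin caps and 41.9 and 44.4 CPM in the other dnE2f4 libraries. At the position of dlc copy 1 alone it had 8.77 FPKM, against 7.87, 7.92 and 8.91 FPKM in Multicilin caps and 16.8 and 16.4 FPKM in the other dnE2f4 libraries. Shared fragments were divided over another set of targets in that library, so its FPKM need not be like for like. With that library added the log2 fold change of dlc was 0.71 (adjusted p = 0.234), and 0 of the 16 names were called in that fit, where 0.807% of all names were.

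Other targets that were called at 6 h leaned the same way at 3 h without passing. dll1 copy 1 had 94.0 and 88.6 CPM in dnE2f4 caps and 61.7, 67.6 and 70.7 CPM in Multicilin caps, and dll1 copy 2 had 36.1 and 29.0 CPM in dnE2f4 caps and 12.2, 17.5 and 20.4 CPM in Multicilin caps. The groups overlapped for neither copy in these libraries, and copy 2 passed with the block only (log2 fold change 0.97, adjusted p = 0.443 without it and 0.0398 with it). hes3.3 copy 1 had 29.6 and 35.7 CPM in dnE2f4 caps and 6.95, 13.0 and 21.5 CPM in Multicilin caps. In dnE2f4 replicate 1, counted against the larger set, every target of the name there summed to 75.3 CPM for dll1 and 17.0 CPM for hes3.3. The matched positions in Multicilin caps gave 73.2 to 90.5 CPM and 8.62 to 24.2 CPM, but the dll1 sums held 5 targets against 2 and are not like for like. At the positions of dll1 copies 1 and 2 that library had 13.5 and 2.04 FPKM, against 21.9 to 24.1 and 4.69 to 7.48 FPKM in Multicilin caps. Fragments that fit several targets were shared out over the larger set in that library, so these FPKM need not be like for like either. hes5.1 had 6.12 and 6.97 CPM in dnE2f4 caps, against 1.52, 2.34 and 2.68 CPM in Multicilin caps, a log2 fold change of 1.60 ± 0.42 (adjusted p = 0.197, and 0.0206 with the block). With the block 6 targets were called at 3 h, 5 higher and hes1 copy 1 lower (-0.85, adjusted p = 0.0195), when 3.10% of all targets were. Of the sums by symbol 0 of 5 were called by edgeR and 0 by DESeq2, with 2 at an unadjusted p under 0.05, where 0.590% of all symbols were called. With the block the hes5 sum was called (0.77, adjusted p = 0.00315), and 4.22% of all symbols were. The block takes libraries of the same number as pairs, a link that the 3 h libraries do not show.

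With the block at 6 h, 14 of the 29 targets were called, 13 higher and 1 lower, when 15.9% of all targets were called and 7.01% called higher. All 5 sums by symbol then passed (19.4% of all symbols did), dll1, jag1 (adjusted p = 0.0277), notch1 (0.0124) and hes5 (0.0416) higher and hes1 (0.0142) lower in dnE2f4 caps.

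At 9 h the fits held 1 dnE2f4 library, whose spread was assumed to be that of the other groups. None of the 29 targets was called, where 1.13% of all targets were, with 5 at an unadjusted p under 0.05 and 0 called by DESeq2. None of the 5 sums was called, where 1.62% of all symbols were, with 0 at an unadjusted p under 0.05 and 0 by DESeq2. The dll1 sum was 13.5 CPM in the dnE2f4 library, against 9.46 and 14.9 CPM in Multicilin caps. The jag1 sum was 1.82 CPM in the dnE2f4 library and 1.04 and 0.71 CPM in Multicilin caps, and the notch1 sum 20.1 CPM in the dnE2f4 library and 12.0 and 12.7 CPM in Multicilin caps. The hes1 sum was 106 CPM in the dnE2f4 library and 99.1 and 131 CPM in Multicilin caps, and the hes5 sum 24.1 CPM in the dnE2f4 library and 13.5 and 21.8 CPM in Multicilin caps. The dnE2f4 library was thus above both Multicilin libraries for jag1, notch1 and hes5. In dnE2f4 replicate 3, counted against the larger set, jag1 summed by name had 0.952 CPM, between the 1.03 and 0.701 CPM of Multicilin replicates 1 and 3. The larger set holds 4 jag1 targets and the common set 2, so these sums are not like for like. With the block, hes3.1 copy 1 (0.80, adjusted p = 0.0123) and notch1 copy 1 (1.14, adjusted p = 0.016) passed (10.9% of all targets did), and so did the sums of hes5 (0.83, adjusted p = 0.00882) and notch1 (0.92, adjusted p = 0.0294), where 14.3% of all symbols passed.

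Summed by second name, the libraries of both target sets were set side by side at 9 h. The sums of dnE2f4 replicate 3, counted against the larger set, run over every target of a name there and need not hold the same targets. hes3.1 had 22.3 and 36.7 CPM in the dnE2f4 libraries labelled replicates 1 and 3, against 12.5 and 16.1 CPM in Multicilin replicates 1 and 3. Over 16 libraries of both sets its log2 fold change was 1.03 ± 0.25 (adjusted p = 0.0317), the 1 call among the 16 names in a fit that called 5.12% of all names. The library labelled dnE2f4 replicate 2 had 11.4 CPM and the library labelled Multicilin replicate 2 had 25.5 CPM, and hes4-a had 7.57 and 15.7 CPM in them. For both genes these values lay nearer to the group that each library's e2f4 matched. For notch1 both lay nearer to the dnE2f4 libraries, with 21.0 CPM in the library labelled dnE2f4 and 30.4 CPM in the one labelled Multicilin, against 19.2 and 18.5 CPM in the other dnE2f4 libraries and 11.0 and 12.4 CPM in the other Multicilin libraries. hes4-a had 13.0 CPM in each of the dnE2f4 libraries labelled replicates 1 and 3, and 5.83 and 8.90 CPM in Multicilin replicates 1 and 3 (0.81 ± 0.26, adjusted p = 0.0853). Over the same 16 libraries dll1, hes3.3, hes4-a and hes8 were again called at 6 h, with log2 fold changes of 1.52, 2.94, 1.11 and 2.85 (4.11% of all names were called), and dlc was not (0.64, adjusted p = 0.143).

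No change of the dnE2f4 effect between times was called for any of the members. Between 3 and 6 h, 0 of 5 sums and 2 of 26 targets had an unadjusted p under 0.05, between 6 and 9 h 1 and 7 did, and the lowest adjusted p was 1. Over all targets 0.00499% were called for the change from 3 to 6 h and 0.0% for that from 6 to 9 h, and over all symbols 0.00831% and 0.0%. DESeq2 called 0 of the members. That dll1 passed at 6 h and not at 3 or 9 h therefore does not show that the effect differed between the times.

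Most of these RNAs were lower at 6 h than at 3 h in both conditions. In dnE2f4 caps 16 of the 29 targets changed between 3 and 6 h, 15 of them lower, where 46.1% of all targets changed and 22.3% were lower. In Multicilin caps 19 changed, 17 of them lower, where 52.1% of all targets changed and 26.4% were lower. The median log2 change from 3 to 6 h over the 26 that passed the filter was -1.66 in dnE2f4 caps and -2.43 in Multicilin caps, against 0.028 and -0.03 over all targets. With no cap free of Multicilin, normal development and the response to Multicilin cannot be told apart in this change.

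The dll1, jag1 and notch1 sums fell from 3 to 6 h in both conditions. notch1 copy 1 averaged 87.8 CPM at 3 h and 12.7 CPM at 6 h in dnE2f4 caps, a log2 change of -2.81. In Multicilin caps it averaged 63.6 CPM at 3 h and 8.39 CPM at 6 h (-2.92 ± 0.32). jag1 copy 1 changed by -2.02 and dll1 copy 1 by -1.07 ± 0.29 in dnE2f4 caps, and in Multicilin caps by -2.71 ± 0.26 and -2.09 ± 0.28. By 9 h dll1 copy 1 was down to 3.16 CPM in the dnE2f4 library and to 1.33 and 3.30 CPM in Multicilin caps. dlc copy 1 changed by -1.04 ± 0.17 from 3 to 6 h in dnE2f4 caps and by -0.69 ± 0.16 in Multicilin caps, and at 9 h it had 8.36 CPM in the dnE2f4 library and 7.06 and 9.43 CPM in Multicilin caps.

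Among the repressors hes4-a changed by -1.66 ± 0.23 in dnE2f4 caps and by -2.45 ± 0.22 in Multicilin caps from 3 to 6 h, and hes3.3 copy 1 by -1.88 ± 0.69 and -3.55 ± 0.73. hes1 did not follow them. hes1 copy 1 changed by -0.40 (adjusted p = 0.513) in dnE2f4 caps and by -0.13 (adjusted p = 0.81) in Multicilin caps from 3 to 6 h, and hes1 copy 2 by 0.21 and 0.54, neither called. From 6 to 9 h the log2 change of hes1 copy 2 in dnE2f4 caps was 1.51, to 66.7 CPM in the 1 library at 9 h, replicate 1. Replicate 1 was already the highest library for this copy at 6 h in both conditions. Changes from 6 to 9 h in dnE2f4 caps all rest on that 1 library. In Multicilin caps hes1 copy 2 stood at 55.6 and 63.0 CPM at 9 h. hes3.1 copy 1 rose in Multicilin caps from 3 to 6 h by 0.52 ± 0.18 (adjusted p = 0.0314) and fell from 6 to 9 h (-1.31 ± 0.22, adjusted p = 0.00103). From 6 to 9 h 12 targets changed in dnE2f4 caps, 11 of them lower, and 7 in Multicilin caps, each lower, where 19.1% and 28.8% of all targets changed and 9.61% and 14.5% were lower.

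Of the sums by symbol all 5 fell in dnE2f4 caps from 3 to 6 h (50.6% of all symbols changed), by 1.17 for dll1, 0.76 for hes1, 1.07 for hes5, 1.73 for jag1 and 2.31 for notch1 on the log2 scale. The hes1 symbol sum includes hes4-a. Summed by name, hes4-a changed by -1.64 (edgeR adjusted p = 9.55e-05), while hes1 changed by -0.20 and was not called (adjusted p = 0.636). In Multicilin caps dll1 (-1.72), jag1 (-2.30) and notch1 (-2.47) were called lower (56.7% changed). hes1 (-0.48) and hes5 (-0.56) were not, at adjusted p of 0.0888 and 0.0999, and were called with the block (70.4% of all symbols were). From 6 to 9 h dll1 fell by 2.46 in dnE2f4 caps (22.8% of symbols changed), and dll1 (-1.40) and hes5 (-1.28) were lower in Multicilin caps (33.4% changed).

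Of 74 other and member symbols listed for the Notch pathway (ligands, receptors, their processing enzymes and inhibitors, the nuclear complex, and hes and hey repressors), 57 were in the tables and 53 were tested as sums. In dnE2f4 caps against Multicilin caps edgeR called 0 at 3 h and 0 at 9 h, with 4 and 6 at an unadjusted p under 0.05, and DESeq2 called 0 and 2. At 6 h 1 was higher, dll1, and 1 lower, dner, where edgeR called 4.79% of all symbols. The median log2 fold change was 0.058 against 0.022 over all symbols. DESeq2 called 5 in all at 6 h. The share of all symbols that DESeq2 called is not given, so its counts have no background here. With the block 9 were higher and 6 lower, where 19.4% of all symbols were called. dner encodes a transmembrane protein with epidermal growth factor repeats that has been described as a Notch ligand in the mammalian cerebellum. It had 9.83, 12.0 and 16.7 CPM in dnE2f4 caps at 6 h and 28.1, 39.5 and 41.2 CPM in Multicilin caps, without overlap (-1.52 ± 0.30, adjusted p = 0.0154). It was under 1 CPM in every library at 3 h, and at 9 h had 15.6 CPM in the dnE2f4 library and 44.0 and 61.0 CPM in Multicilin caps. Its call was lost without Multicilin replicate 2 or 3 or dnE2f4 replicate 2 at 6 h.

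From 3 to 6 h 30 of the 53 pathway symbols changed in dnE2f4 caps, 7 higher and 23 lower, and 29 in Multicilin caps, 9 higher and 20 lower, where 50.6% and 56.7% of all symbols changed. In Multicilin caps hey1, a repressor related to the hes genes, changed by -3.40 and nrarp, a Notch-induced inhibitor of the pathway, by -2.47. lfng, which adds sugars to the receptor, rose by 1.13 and furin, a protease that matures it, by 1.75. rbpj, which encodes the DNA-binding partner of the cleaved receptor, changed by -0.29 and was not called (adjusted p = 0.174).

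Few markers of cell types were called at 6 h without the block. Of those tested, 2 of 15 neural markers were lower in dnE2f4 caps, 1 of 12 ionocyte markers and 2 of 16 ectodermal markers were higher, and 0 of 5 mesoderm and 0 of 7 endoderm markers were called, where 4.79% of all symbols were. With the block 4 neural markers were lower and 4 of 7 endoderm markers higher. Of the ionocyte markers 5 were then higher and 1 lower, and of the ectodermal markers 6 higher and 1 lower. The mesoderm list still had 0 called, where 19.4% of all symbols were. Summed over the 23 of 25 neural markers found, dnE2f4 caps had 3667 to 5558 CPM at 6 h and Multicilin caps 6496 to 7786 CPM, with neurog1, neurog3, neurod1 and neurod4 under 0.05 CPM in both. Of these sums tubb2b, a tubulin gene on the neural list, made up 93.8% to 96.0% in dnE2f4 caps and 94.7% to 95.5% in Multicilin caps, and it was not called (-0.62 ± 0.18, adjusted p = 0.0729). The other 22 summed to 221 to 236 CPM in dnE2f4 caps and 342 to 349 CPM in Multicilin caps. tubb2b did not follow them over time: in Multicilin caps it had 1927 to 2440 CPM at 3 h and 10872 to 11395 CPM at 9 h. The other 22 had 281 to 393 CPM and 213 to 249 CPM at those times. At 6 h the early neural genes sox3 (-1.24, adjusted p = 0.00916) and ncam1 (-0.77, adjusted p = 0.00783) were lower in dnE2f4 caps. The ionocyte regulator foxi1 (0.88 ± 0.22, adjusted p = 0.046) and the ectodermal factors gata3 (1.66 ± 0.38, adjusted p = 0.0291) and grhl2 (0.80, adjusted p = 0.0457) were higher, while the 12 of 14 ionocyte markers found summed to 808 to 1086 CPM in dnE2f4 caps and 712 to 1026 CPM in Multicilin caps. In these sums atp6v1a alone had 303 to 524 CPM in dnE2f4 caps and 313 to 520 CPM in Multicilin caps, so they say little of the scarcer markers. Mesoderm markers (8 of 10 found) summed to 1.44 to 4.27 CPM in dnE2f4 caps and 2.23 to 4.68 CPM in Multicilin caps, and endoderm markers (7 of 11) to 101 to 110 CPM and 78.5 to 102 CPM. Most of the endoderm sum was a2m, with 88.7 to 97.4 CPM in dnE2f4 caps and 72.5 to 93.6 CPM in Multicilin caps. In bulk RNA fewer cells of a type and less RNA per cell cannot be told apart, and the part of these markers in the Notch gene differences was not tested.

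The genes whose pattern was closest to each sum over the 14 libraries, by Pearson's r of log2(CPM + 1) among 8640 symbols with a mean of at least 5 CPM, were acvr1 (0.989), tmem183a and nudt22 for dll1. They were cnot6l (0.987), phf20 and rpap2 for jag1, and tsku (0.996), trmt1 and ncoa6 for notch1. For hes5 they were ventx (0.973), cdc16 and c19orf60. hes1 had no neighbour as close, with cox11 (0.930), fzd5 and pold2 first. The 14 libraries share 3 times and 2 conditions, so that their likeness includes the change with time common to many genes.

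E2f4-GFP peaks, 1 pooled set per condition, were found near some of the starts. A peak centre lay within 1 kb of the start of 8 of the 29 targets with Multicilin (27.6%, against 19.7% of all targets) and of 8 without Multicilin (27.6%, against 27.2%). The sets held 12778 peaks from 15313243 tags with Multicilin and 15693 peaks from 24997566 tags without, and the part of this difference in depth in peaks found in one set alone was not tested. Starts within 1 kb of a peak in both sets were those of dll1 copy 1 (0.41 kb downstream with Multicilin and 0.35 kb without), jag1 copy 1 (0.06 and 0.04 kb), notch1 copy 1 (0.21 and 0.11 kb upstream), notch1 copy 2 (0.22 and 0.26 kb upstream), hes1 copy 2 (0.68 and 0.71 kb upstream) and hes3.1 copy 2 (0.27 and 0.19 kb upstream). The peak sets of the 2 conditions thus had nearly the same positions at these 6 starts.

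With Multicilin alone a peak lay within 1 kb of dll1 copy 2 (0.97 kb upstream, the nearest without Multicilin 8.18 kb upstream) and hes1 copy 1 (0.24 kb, against 2.83 kb). Without Multicilin alone a peak lay within 1 kb of hes8 copy 2 (0.06 kb upstream, the nearest with Multicilin 5.62 kb downstream) and hes5 copy 1 (0.14 kb, against 9.65 kb). Of the 7 targets called at 6 h, dll1 copy 1 and dll1 copy 2 had a peak this near with Multicilin, where 19.7% of all targets did. Without Multicilin dll1 copy 1 alone had one, where 27.2% of all targets did. The nearest peaks of dlc copy 1 lay 3.55 kb upstream with Multicilin and 3.52 kb without, those of hes4-a 2.33 and 2.44 kb, those of hes3.3 copy 1 9.57 and 5.81 kb and those of hes3.3 copy 2 7.31 and 5.38 kb upstream. Among the pathway symbols 22 of 57 had a peak within 1 kb of any start with Multicilin (38.6%, against 28.6% of all symbols), and 29 of 57 without (50.9%, against 38.2%).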

How the data were processed

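The deposited RNA tables hold, per the file headers, estimated counts, uniquely assigned counts and FPKM per target made by eXpress. STAR, Bowtie2, Bowtie, DESeq and HOMER are also named in the submitters' processing notes, with no version, and the library kit does not keep strand, per the labels' protocols. The deposited peak lists were called by HOMER on 2 pooled replicates per condition against pooled input (false discovery rate 0.001, with a 4-fold minimum against input and against neighbouring sequence, per the file headers). Their score column, as deposited, is 1 for each peak and was not used.

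Estimated counts were rounded. Tests were edgeR 4.0.16 quasi-likelihood (robust, TMM, filterByExpr, a mean per group, R 4.3.3) over all targets or over sums by symbol, Benjamini-Hochberg adjusted. CPM use TMM-scaled library sizes. Left out were the 2 libraries of the larger target set and the 2 labelled replicate 2 at 9 h. Sums by second name were added to bring in all libraries. In libraries of the common set they run over the matched positions, and in those of the larger set over every target of that name there. For dll1 these were 2 and 5 targets, so the sums of the 2 sets are not of the same loci. The members and lists were chosen with earlier results of these data known. Named were all members, any listed pathway symbol called for dnE2f4, and for each member sum the 3 most alike symbols. Outside this rule, hey1, nrarp, lfng, furin, rbpj and the cell type markers were named after their values were seen. A fold change of a single target is printed where either group averaged at least 1 CPM.

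The correlation between same-numbered libraries of their deviations from group means was 0.162 and 0.278 (3 h) and 0.68, 0.424 and 0.463 (6 h). All were above 0.1, but so were 0.125 (3 h), 0.112 and 0.175 (6 h) between different numbers, which ran from -0.503 to 0.175. At 6 h each same-numbered value was above every other, and the numbers were taken as pairs, a link not stated in the labels. At 3 h the values of the dnE2f4 libraries were mirror images (0.162 and -0.162, 0.278 and -0.278), so they do not show the link. With 1 dnE2f4 library at 9 h the link could not be checked there. Calls with the block at 3 and 9 h thus rest on a link not shown at those times. The block over the 14 libraries also assumes that a number links libraries of different times, which was not tested. Libraries of a group differed by more than sampling noise (chi-square per degree of freedom at least 11.9). Alternatives were RLE size factors, library size alone, no filter, DESeq2 1.42.0, unique counts, the replicate block, other sets of libraries and each library left out. The procedure was tested on simulated counts.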

Additional observations from a re-analysis of the deposited data

How the results depend on the processing

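The numbers of members called moved with the block and with the libraries used. With the replicate block the counts of targets were 6 at 3 h, 14 at 6 h (15 with the 6 h groups alone) and 2 at 9 h for dnE2f4 against Multicilin, and 11 from 6 to 9 h in Multicilin caps. The counts of sums with the block were 1, 5 (5 with the 6 h groups alone) and 2 at 3, 6 and 9 h, 5 from 3 to 6 h in Multicilin caps and 3 from 6 to 9 h in dnE2f4 caps. With the groups compared fitted alone, 0 targets were called at 3 h and 3 at 6 h, and with uniquely assigned counts 0 at 3 h. With the 16 libraries of the common target set as labelled, 0 targets at 3 h, 0 targets and 0 sums at 6 h and 2 sums from 6 to 9 h in dnE2f4 caps were called. Over 16 libraries of both target sets, and over all 18 as labelled, 0 sums were called at 6 h, 3 from 3 to 6 h in dnE2f4 caps and 1 from 6 to 9 h in Multicilin caps, and over all 18 there were 2 from 6 to 9 h in dnE2f4 caps. In these 2 fits a symbol sums unlike targets, since the larger set holds 6 hes5 and 5 dll1 targets and the common set 14 and 4. The fits as labelled keep the 2 libraries whose e2f4 is opposite to their labels. Library size alone gave 5 sums from 3 to 6 h in Multicilin caps and 2 from 6 to 9 h in dnE2f4 caps, and DESeq2 2 in the last. Within 5 kb, 11 starts had a peak with Multicilin (37.9%, against 24.4% of all targets) and 15 without (51.7%, against 32.9%). The cause of these moves was not tested. For fits with other sets of libraries or with a library left out, the share of all targets or symbols called is not given. A lower count of members in such a fit therefore need not be particular to them.

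With 1 library left out, the dnE2f4 comparison called 0 to 1 targets at 3 h, 0 to 8 targets and 1 to 2 sums at 6 h. From 3 to 6 h it called 10 to 17 targets and 3 to 5 sums in dnE2f4 caps, with 10 targets without dnE2f4 replicate 3 at 3 h, and 15 to 18 targets and 3 to 5 sums in Multicilin caps. From 6 to 9 h it called 7 to 12 targets (7 without dnE2f4 replicate 3 at 6 h) and 1 to 2 sums in dnE2f4 caps and 5 to 8 targets and 1 to 2 sums in Multicilin caps.

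Among single genes, 32 values changed sign, none of a value called in the 14-library tests. With other settings these were, for dnE2f4 against Multicilin, dlc copy 2 at 3 h (0.11, block), the dll1 sum at 9 h (-0.29 over 16 libraries of both sets, -0.10 over 18), the hes1 sum at 9 h (0.010 with library size alone, 0.16 with the block), the hes5 sum at 9 h (-0.077 with 16 as labelled, -0.51 over both sets, -0.64 over 18) and hes3.1 summed by name at 9 h (-0.093 with 16 as labelled). Over both sets and over 18 libraries the symbol sums join unlike targets. The hes5 sum has 6 targets in the larger set and 14 in the common set, where it includes hes3.1. The values as labelled hold 2 libraries whose e2f4 is opposite to their labels. In dnE2f4 caps hes3.1 copy 1 from 3 to 6 h (-0.086) and the hes1 sum from 6 to 9 h (-0.0081) changed sign with library size alone. With 1 library left out the ranges that crossed 0 at 3 h were -0.13 to 0.37 (jag1 copy 1), -0.018 to 0.37 (jag1 symbol sum), -0.024 to 0.37 (jag1 name sum), -0.38 to 0.11 (dlc copy 2), -0.76 to 0.20 (hes1 copy 2), -0.47 to 0.16 (hes1 sum) and -0.029 to 0.34 (hes3.1 copy 1). At 6 h that of hes3.1 copy 2 was -0.36 to 0.44, and at 9 h that of the dll1 sum was -0.14 to 0.50 and that of the hes1 sum -0.31 to 0.082. Over time they were, from 3 to 6 h, -0.54 to 0.13 for hes1 copy 1 in Multicilin caps and, in dnE2f4 caps, -0.76 to 0.18 for hes1 copy 1, -0.16 to 0.80 for hes1 copy 2 and -0.037 to 0.33 for hes3.1 copy 1. From 6 to 9 h the hes1 sum in Multicilin caps gave -0.40 to 0.014.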
